A study of Mus musculus with 9 samples.

Results

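Gpr83, Ecm1, Plagl1, Sytl2, Ahcyl2, Gpm6b, Swap70, Cd83, Dhrs3 and Glipr2 are genes whose transcripts mark regulatory T (Treg) cells but whose work in these cells is less studied than that of Foxp3 or Ctla4. They were taken from the array by exact gene symbol, which found all 10 genes in 11 probe sets, out of 22180 named genes in 23521 probe sets. Plagl1 has 2 probe sets, and the one with the higher mean stands for it. Transcript levels were measured in 4 samples of Mst1/Mst2-null Treg cells (KO) and 5 samples of wild-type Treg cells (WT), with 1 Affymetrix array each. The comparison asks which transcripts depend on Mst1 and Mst2, the upstream kinases of the Hippo pathway, encoded by Stk4 and Stk3. KO cells came from Foxp3YFP-CreStk4f/fStk3f/f donors and WT cells from Foxp3YFP-Cre donors, both C57BL/6, so the WT cells carry the same YFP-Cre allele at Foxp3. The Foxp3 promoter drives the Cre, which limits the deletion to cells that have expressed Foxp3. Cells positive for CD4, YFP and CD45.2 and negative for CD45.1 were sorted from RAG1-/- recipients, which have no mature T or B cells of their own. These mice had received a 1 to 1 mixture of CD45.2 donor marrow and WT CD45.1 marrow 2 months earlier. The sources used here give no age and do not say whether mice were pooled. Nor do they say whether each sample is another mouse, so a p-value covers only the spread among these samples, which may be technical. Serial numbers in the sample titles run through the WT samples before the KO samples, so any effect of that order and genotype cannot be told apart.

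Treg cells are the CD4 T cells that hold other immune cells in check, and they need the transcription factor Foxp3. Their transcript signature holds Foxp3 targets, genes induced by T cell receptor and interleukin-2 signals, and genes whose Treg function is poorly known. The 10 genes were grouped here as less studied, which does not exclude the other kinds, and Gpr83 is a gene that Foxp3 induces. They belong to unrelated families. Among them are surface and secreted proteins (Cd83, Gpm6b, Gpr83, Ecm1) and enzymes and their relatives (Dhrs3, Ahcyl2). Others are proteins of the cytoskeleton and of vesicles (Swap70, Sytl2, Glipr2), and a transcription factor (Plagl1).

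Cd83, Dhrs3 and Swap70 fell in KO Treg cells, and the other 7 genes did not pass the test. Thus 3 of 10 genes fell and 0 rose (limma, adjusted p under 0.05 over all 22180 genes), where 1.89% of all genes fell and 0.428% rose. Shares of all genes include dim genes, while all 10 genes had means above the median of all probe sets, 4.04. With dim genes left out, 6.21% of 11350 genes passed in either direction, beside 2.32% of all genes, and 3 of the 10 fell. The same 3 genes were the ones whose KO and WT values did not overlap, against 6.16% of all genes (4.4% with KO below WT). At an unadjusted limma p under 0.05 there were 4 genes lower (Gpm6b in addition) and 0 higher, beside 14.9% of all genes in either direction, and 2.32% after adjustment. Values are log2 RMA values as the authors deposited them, and each difference is KO minus WT. The median difference over the 10 genes was -0.10, beside 0.0023 over all genes. An array of bulk RNA cannot tell fewer cells with a transcript from less transcript per cell.

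**Figure D1:**
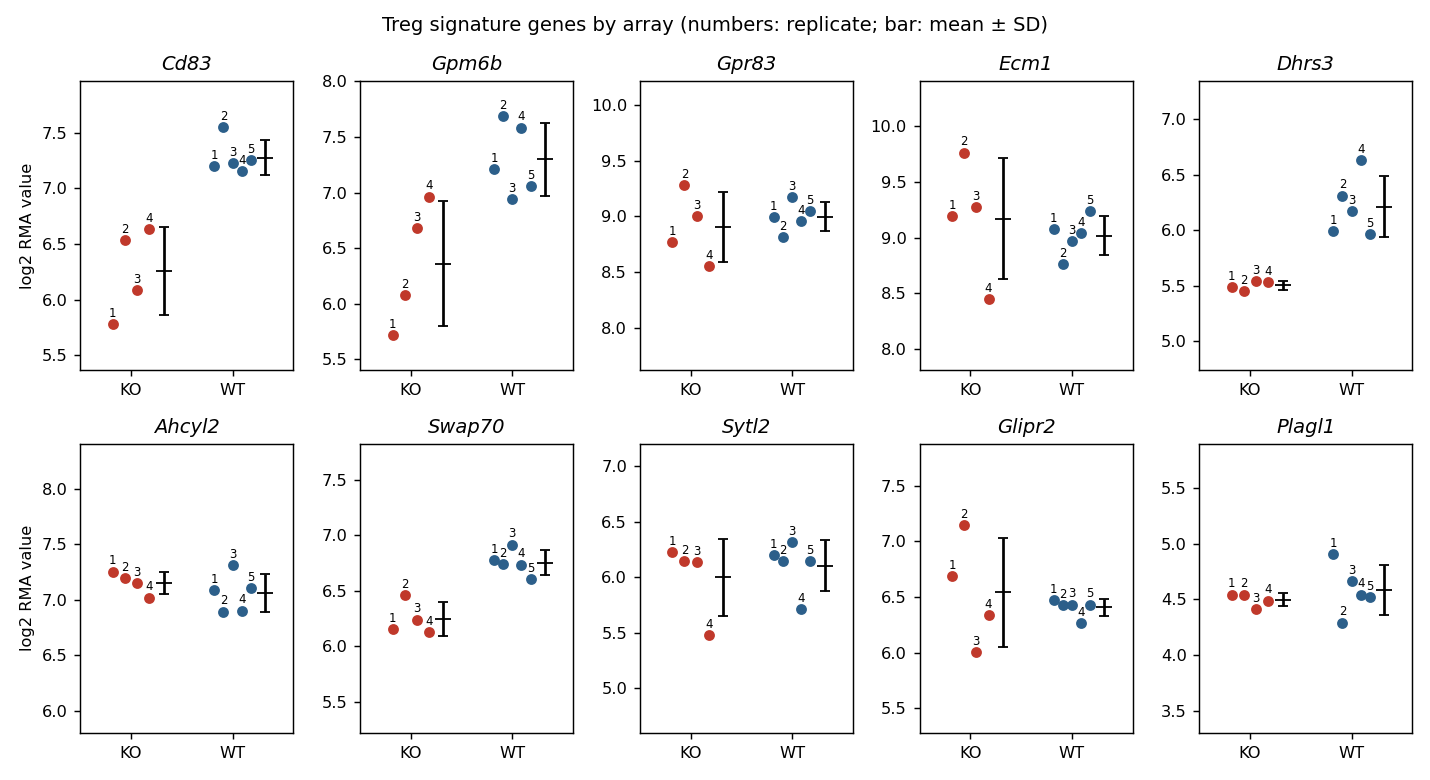
Log2 RMA values (vertical axis, each panel spanning the same range) of the 10 genes in each KO array (red, left) and WT array (blue, right), with the replicate number above each point and the mean ± SD as a bar. All KO values lie below all WT values for Cd83, Dhrs3 and Swap70, and the groups overlap for the other 7 genes.

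The samples were checked against their labels first. Stk4 had values of 7.55, 7.83, 7.50 and 7.69 in KO arrays, against 7.84, 7.88, 8.09, 7.88 and 7.88 in WT arrays, with a difference of -0.27 (limma adjusted p = 0.146, not passed). Its probe set covers the whole transcript, and which exons Cre removes is not stated, so this is no check of the deletion, and Stk3 had no named probe set. The 8 Treg and T cell markers (Cd3e, Cd3g, Cd4, Foxp3, Il2ra, Ctla4, Ikzf2 and Tnfrsf18) all lay above the median of all probe sets, 4.04. Of these Ikzf2 alone passed (difference -0.72, limma adjusted p = 0.0330), while Foxp3 averaged 10.72 ± 0.092 in KO and 10.70 ± 0.049 in WT arrays (SD, n = 4 and 5). The 8 markers had a median difference of -0.23. At an unadjusted limma p under 0.05, 5 of them were lower, beside 14.9% of all genes in either direction. Their summed linear level was 6958 to 7953 in KO and 8502 to 9159 in WT arrays. The part of this in the falls reported below was not tested. None of 2 CD8 T cell, 4 NK cell and 4 thymocyte markers passed the limma test, and 1, 0 and 1 of them had an unadjusted p under 0.05. KO array 4 stood apart in some myeloid transcripts, while others, such as Itgam and Csf1r, were not highest there. S100a8, a neutrophil calprotectin subunit, read 8.90 there, against 2.91 to 5.84 in the other KO arrays and 3.96 to 6.89 in WT arrays, and the summed linear level of 12 dendritic and myeloid markers ranged from 225.5 to 1138 over KO and from 202.7 to 438.3 over WT arrays.

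Promoter sequences are shown for the 3 genes in which a forkhead motif was found, as Foxp3 is a forkhead factor. Dhrs3 and Swap70 fell in KO cells and Ahcyl2 did not pass. Any link between the motif and these differences was not tested. RefSeq (GRCm38.p6) gave 12 promoter windows for 8 of the 10 genes, each from 250 bases before to 50 bases after an annotated start. Both strands were searched for TGTTTAC (forkhead), TTCNNNGAA (STAT) and GGAATG (TEAD, the DNA-binding partner of YAP in the Hippo pathway). Capitals mark the matches.
Swap70, chr7:110221453-110221752, + strand: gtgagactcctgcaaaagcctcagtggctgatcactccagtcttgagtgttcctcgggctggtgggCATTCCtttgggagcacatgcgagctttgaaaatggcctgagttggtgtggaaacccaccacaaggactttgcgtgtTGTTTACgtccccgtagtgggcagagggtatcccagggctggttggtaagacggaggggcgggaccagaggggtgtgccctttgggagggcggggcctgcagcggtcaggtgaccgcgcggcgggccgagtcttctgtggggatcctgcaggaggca
Dhrs3, chr4:144892887-144893186, + strand: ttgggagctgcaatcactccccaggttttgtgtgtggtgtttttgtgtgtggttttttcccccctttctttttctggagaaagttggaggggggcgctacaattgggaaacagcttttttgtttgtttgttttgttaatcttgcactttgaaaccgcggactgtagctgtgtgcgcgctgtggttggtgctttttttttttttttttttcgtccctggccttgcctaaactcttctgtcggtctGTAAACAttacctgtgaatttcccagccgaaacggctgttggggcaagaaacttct
Ahcyl2, chr6:29853491-29853790, + strand: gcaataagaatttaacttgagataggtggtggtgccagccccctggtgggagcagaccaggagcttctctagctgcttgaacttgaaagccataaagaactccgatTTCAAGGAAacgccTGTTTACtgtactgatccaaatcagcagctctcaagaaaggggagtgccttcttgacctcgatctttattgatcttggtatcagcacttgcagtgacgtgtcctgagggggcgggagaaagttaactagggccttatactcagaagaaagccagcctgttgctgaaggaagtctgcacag
The Swap70 window holds a TEAD match on the opposite strand 184 bases before the start and a forkhead match 107 bases before it. In Dhrs3 a forkhead match on the opposite strand lies 6 bases before this start, the most downstream of 3 annotated ones, and the other 2 windows hold no match. The Ahcyl2 window, at an internal start, holds a STAT match and then a forkhead match, and another Ahcyl2 window holds a TEAD match. Of the 12 windows 3 held a forkhead motif, 1 a STAT motif and 2 a TEAD motif, where 3.65%, 8.3% and 14.7% of all 32851 windows did. Dhrs3 and Ahcyl2 have several windows each, and those of Dhrs3 overlap, so the windows are not independent. Cd83 and Sytl2 were not searched, as no window was used for them. A match is a run of letters and no evidence of binding.

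Cd83 was reduced most among the 10 genes. It encodes an immunoglobulin-superfamily membrane protein of mature dendritic cells and activated lymphocytes, known for keeping MHC class II and CD86 at the cell surface. Its values were 5.78, 6.53, 6.08 and 6.63 in KO arrays, against 7.20, 7.55, 7.23, 7.15 and 7.25 in WT arrays. The highest KO array lay 0.52 below the lowest WT array. Cd83 averaged 6.26 ± 0.40 in KO and 7.28 ± 0.16 in WT arrays (SD, n = 4 and 5), a difference of -1.02 ± 0.17 (SE) or a fall of 2.03-fold (95% interval 1.57 to 2.62, limma adjusted p = 0.0122). The call held in each of 19 other settings. KO arrays 1 and 3 were the lowest and KO arrays 2 and 4 the highest of their group.

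Transcripts of proteins that act beside CD83 were read from a list of MARCH ligases, MHC class II genes and B7 ligands. Where 1.89% of all genes fell and 0.428% rose, 0 of 9 other measured members rose and 1 fell. This was Cd80, the B7-1 ligand of CD28 and CTLA-4, with 4.43 ± 0.36 in KO and 5.73 ± 0.45 in WT arrays (SD, n = 4 and 5, 2.47-fold, limma adjusted p = 0.0183). Cd274, which encodes the PD-1 ligand PD-L1, differed by -0.47 without passing (limma adjusted p = 0.0548). For Cd86, the difference was 0.086 (limma adjusted p = 0.902). The MHC class II genes H2-Aa and H2-Ab1 differed by 0.36 and 0.54 without passing (limma adjusted p = 0.666 and 0.434). Both were named after their values were seen. Cd83 and Cd80 are also transcripts of B cells and dendritic cells, whose markers were measured in the same arrays. None of 9 B and plasma cell markers and none of 12 dendritic and myeloid markers passed in either direction, with median differences of 0.25 and 0.16, and 1 and 2 of them were higher at an unadjusted limma p under 0.05. The summed linear level of the B cell list ranged from 235.5 to 445.3 over KO and from 205.2 to 418.5 over WT arrays. The part of such cells in the Cd83 and Cd80 falls was not tested. Without KO array 4, the one with high S100a8, the Cd83 difference was -1.14.

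Gpm6b had a difference nearly as large as that of Cd83 but more scatter. It encodes a membrane glycoprotein of the proteolipid protein family, best known from neurons and oligodendrocytes. Gpm6b values were 5.72, 6.08, 6.68 and 6.96 in KO arrays, against 7.21, 7.69, 6.94, 7.58 and 7.06 in WT arrays. The groups met at 1 point, where KO array 4 was 0.019 above WT array 3. The mean was 6.36 ± 0.56 in KO and 7.30 ± 0.32 in WT arrays (SD, n = 4 and 5), a difference of -0.94 (95% interval -1.49 to -0.38) with a limma adjusted p of 0.0914. Without KO array 4 the difference was -1.14 and passed (limma adjusted p = 0.0389), while without KO array 1 it was -0.72 (limma adjusted p = 0.183). Of its family Plp2, a colonic epithelium-enriched proteolipid, differed by 0.21, and none of 3 other measured members passed. In that list 2 of the 4 measured genes had means under the overall median of 4.04.

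Gpr83 and Ecm1 had high signal on these arrays and did not separate the groups. Gpr83 is a G protein-coupled receptor that Foxp3 induces in Treg cells. Gpr83 read 8.77, 9.28, 9.00 and 8.55 in KO arrays, against 8.99, 8.81, 9.17, 8.96 and 9.05 in WT arrays, so that the WT values lay inside the KO range. The difference was -0.095 (95% interval -0.40 to 0.21, limma adjusted p = 0.813). Ecm1, a secreted glycoprotein of the extracellular matrix that helper T cells need to leave lymph nodes in mice, read 9.19, 9.76, 9.28 and 8.45 in KO arrays, against 9.07, 8.76, 8.97, 9.04 and 9.24 in WT arrays. Its difference was 0.15 (95% interval -0.32 to 0.63, limma adjusted p = 0.810). Both genes ranked the KO arrays in the same order, with array 2 highest, then arrays 3 and 1, and array 4 lowest. The difference turned sign for Ecm1 without KO array 2 (-0.044) and for Gpr83 without KO array 4 (0.022). An interval of this width does not show that either gene is unaffected.

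Genes listed with these 2 gave 3 falls, where 1.89% of all genes fell. In the list of neuropeptide precursors and related receptors, Penk, the proenkephalin gene, alone of 11 other genes passed, with 4.29 ± 0.44 in KO and 5.66 ± 0.39 in WT arrays (SD, n = 4 and 5, 2.58-fold, limma adjusted p = 0.0151). Pcsk1n, whose product is the precursor of a peptide ligand of Gpr83, was under the overall median of 4.04 in both groups, so no fold is given. Of 12 other matrix genes 2 fell: Lamc1, the laminin gamma-1 chain (difference -1.41, limma adjusted p = 0.0151), and Timp2, an inhibitor of matrix metalloproteinases (difference -0.61, limma adjusted p = 0.0055).

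Dhrs3 fell to a narrow band in KO cells. Its product, a short-chain dehydrogenase, turns retinaldehyde back to retinol and so limits retinoic acid. Dhrs3 values were 5.49, 5.45, 5.54 and 5.53 in KO arrays, against 5.99, 6.31, 6.17, 6.63 and 5.97 in WT arrays. Each KO array lay at least 0.42 below the lowest WT array. The means were 5.50 ± 0.041 in KO and 6.21 ± 0.27 in WT arrays (SD, n = 4 and 5), a fall of 1.63-fold (95% interval 1.35 to 1.98, limma adjusted p = 0.0171). The call was lost without KO array 1 (limma adjusted p = 0.0545) or WT array 2 (limma adjusted p = 0.0520), with differences of -0.70 and -0.68. No other gene of retinoid metabolism or of the retinoic acid receptors passed, 0 of 20. In that list 8 of the 21 measured genes had means under the overall median of 4.04. The receptor gene Rarg came nearest, with 6.01 ± 0.23 in KO and 6.37 ± 0.094 in WT arrays (SD, n = 4 and 5, limma adjusted p = 0.123), and the binding protein gene Crabp1 had a difference of -0.11.

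Ahcyl2 is a relative of S-adenosylhomocysteine hydrolase that regulates ion transporters. Ahcyl2 read 7.25, 7.19, 7.15 and 7.02 in KO arrays, against 7.09, 6.89, 7.31, 6.90 and 7.10 in WT arrays. The KO values fell inside the WT range, and the difference was 0.094 (95% interval -0.11 to 0.30, limma adjusted p = 0.716). In its family, which here includes inositol trisphosphate receptors, 0 of 4 other genes passed. Ahcyl1, which binds those receptors, had a difference of -0.24, and Ahcy, the hydrolase itself, -0.55 (limma adjusted p = 0.230 and 0.261).

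Swap70, a phosphoinositide-binding protein that links membrane signals to Rac GTPases and actin, fell by a smaller amount. Its values were 6.15, 6.46, 6.24 and 6.13 in KO arrays, against 6.78, 6.74, 6.92, 6.73 and 6.60 in WT arrays. The groups were 0.14 apart at their nearest, between KO array 2 and WT array 5. Swap70 averaged 6.25 ± 0.15 in KO and 6.75 ± 0.11 in WT arrays (SD, n = 4 and 5), a difference of -0.51 ± 0.087 (SE) or a fall of 1.42-fold (95% interval 1.24 to 1.63, limma adjusted p = 0.0158). Without KO array 1 the difference was -0.48 and the call was lost (limma adjusted p = 0.0532). Def6, the closest relative of Swap70, had a difference of -0.021 (limma adjusted p = 0.912) and was named after its value was seen. None of the 4 other genes in that list, Def6 and the Rac GTPases, passed.

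Sytl2 encodes a synaptotagmin-like effector of Rab27 that docks vesicles at the plasma membrane. Sytl2 read 6.23, 6.14, 6.14 and 5.48 in KO arrays, against 6.20, 6.14, 6.32, 5.71 and 6.14 in WT arrays. Array 4 of each group was low and the other 7 arrays lay close together. The difference was -0.11 (95% interval -0.47 to 0.26, limma adjusted p = 0.836), and 0.067 without KO array 4. Its machinery did include genes that fell, 2 of 10 others, where 1.89% of all genes fell. Rab27a itself had 7.50 ± 0.10 in KO and 7.86 ± 0.075 in WT arrays (SD, n = 4 and 5, limma adjusted p = 0.0249). Sytl1, another Rab27 effector of the same family, had 5.45 ± 0.12 in KO and 5.85 ± 0.12 in WT arrays (SD, n = 4 and 5, limma adjusted p = 0.0316).

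Glipr2, a Golgi-associated protein of the CAP superfamily, read 6.69, 7.15, 6.01 and 6.34 in KO arrays, against 6.47, 6.42, 6.43, 6.27 and 6.43 in WT arrays. KO arrays lay on both sides of a narrow WT band. The difference was 0.14 (95% interval -0.28 to 0.55, limma adjusted p = 0.802), and -0.063 without KO array 2. None of 9 other CAP genes passed, and 7 of the 10 genes in that list had means under 4.04. Plagl1, an imprinted zinc finger transcription factor also called Zac1, read 4.54, 4.54, 4.41 and 4.49 in KO arrays, against 4.91, 4.29, 4.66, 4.54 and 4.52 in WT arrays. These values are only slightly above that overall median, a range in which true signal and background are hard to part. Its difference was -0.089 (95% interval -0.33 to 0.15, limma adjusted p = 0.777), and its second probe set, at 3.11 ± 0.52 in KO and 3.49 ± 0.68 in WT arrays (SD, n = 4 and 5), did not pass either (limma adjusted p = 0.682). Of 11 other PLAG family and imprinted genes 0 passed, and Plagl2 had a difference of -0.35 (limma adjusted p = 0.206). In that list 7 of the 12 measured genes had means under 4.04.

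**Figure D2:**
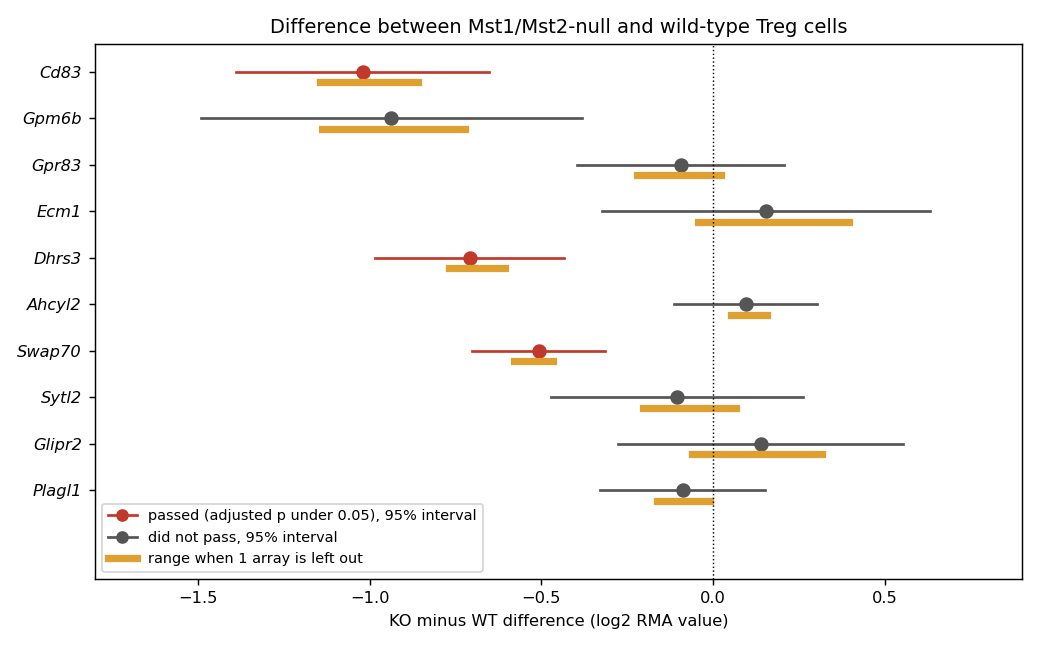
KO minus WT difference in log2 RMA value (horizontal axis) for each of the 10 genes, with the limma 95% interval as a line (red where the gene passed, grey where it did not) and the range obtained when 1 array is left out as an orange bar. The intervals of Cd83, Gpm6b, Dhrs3 and Swap70 lie below 0, and those of the other 6 genes include it.

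For the 6 genes other than Gpm6b that did not pass, the smallest limma adjusted p was 0.716, and the 95% intervals together ran from -0.47 (Sytl2) to 0.63 (Ecm1). These outer bounds come from different genes. For each of the 6 genes a difference inside its own interval was not resolved by 4 against 5 arrays. An unadjusted limma p under 0.05, in either direction, was also counted in the family lists where none of the other genes passed. It was found for 1 of 20 retinoid genes, 3 of 4 of the Ahcy family and 2 of 4 of the Swap70 list. In the PLAG list there were 2 of 11, and in the proteolipid and CAP lists 0 of 3 and 0 of 9. Over all genes the share was 14.9%. Of the genes so counted only Meg3, in the PLAG list, was higher in KO arrays (difference 0.30).

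The genes differed in how far replicates lay apart. In 7 of 10 the SD was larger in KO than in WT arrays, as in 59.2% of all genes. Glipr2 was the extreme, with an SD of 0.49 in KO and 0.079 in WT arrays, a ratio of 6.17 reached by 2.85% of all genes. Dhrs3 was the reverse, with 0.041 in KO and 0.27 in WT arrays, a ratio of 0.151 or less being found in 2.32% of all genes. Each array can also be read across the 10 genes as its deviation from the WT mean. In KO array 4 all 10 genes lay below that mean, with a median deviation of -0.51. KO arrays 1, 2 and 3 had 6, 5 and 6 genes below it, and WT arrays between 4 and 7. Cd83, Gpm6b, Dhrs3 and Swap70 lay below it in every KO array. KO array 4 held the lowest of all 9 values for 4 genes (Gpr83, Ecm1, Sytl2 and Swap70), and KO array 2 the highest for 3 (Gpr83, Ecm1 and Glipr2). Such counts by array were not made over all genes, so they describe these 10 genes only. KO array 4 is also the array with high S100a8, and the part of this in the low values was not tested.

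**Figure D3:**
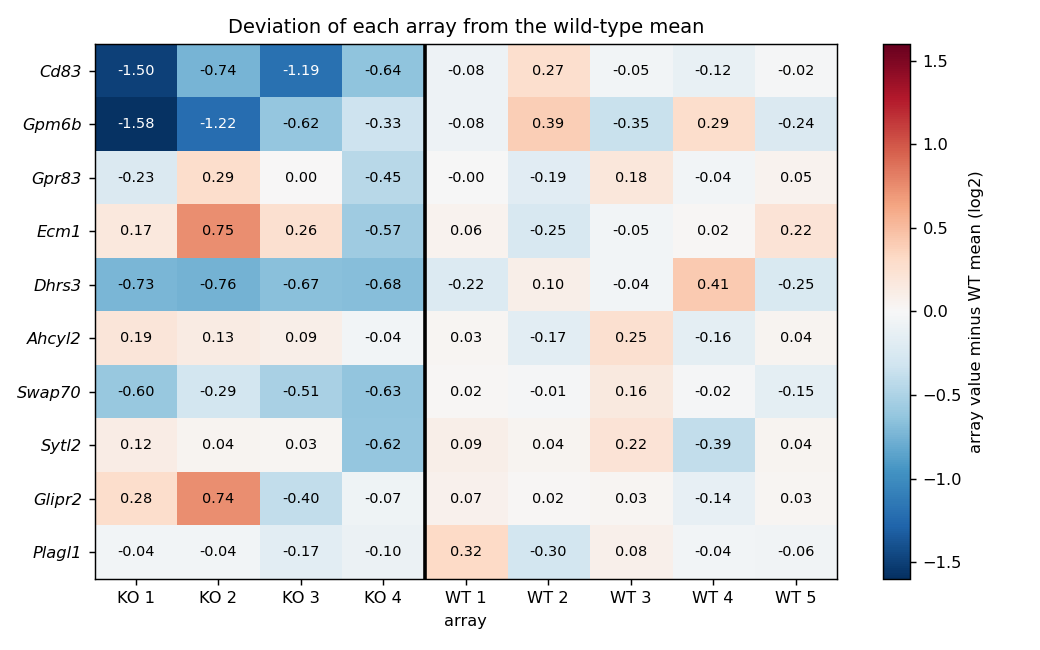
Deviation of each array (columns, KO left of the black line, WT right) from the WT mean for each gene (rows), in log2 units, printed in each cell and coloured blue below 0 and red above 0. Cd83, Gpm6b, Dhrs3 and Swap70 are below 0 in all 4 KO arrays, while Ecm1 and Glipr2 are 0.75 and 0.74 above the WT mean in KO array 2.

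Genes listed for the same reason, as Treg signature genes, fell in 18 of 37 cases (48.6%) and rose in 0. Over all genes 1.89% fell and 0.428% rose. The median difference of the listed genes was -0.71. That list was written with earlier results of these data known, so its direction is no independent evidence. Foxp3 and Il2ra, which are in it, had differences of 0.014 and 0.056 and did not pass. The conventional naive CD4 T cell markers moved the other way: 3 of 9 rose (Dapl1, Igfbp4 and Pde3b), and their summed linear level was 2728 to 3073 in KO and 1835 to 2240 in WT arrays. They moved with the falls of Cd83, Dhrs3 and Swap70, and their part in these falls was not tested.

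**Figure D4:**
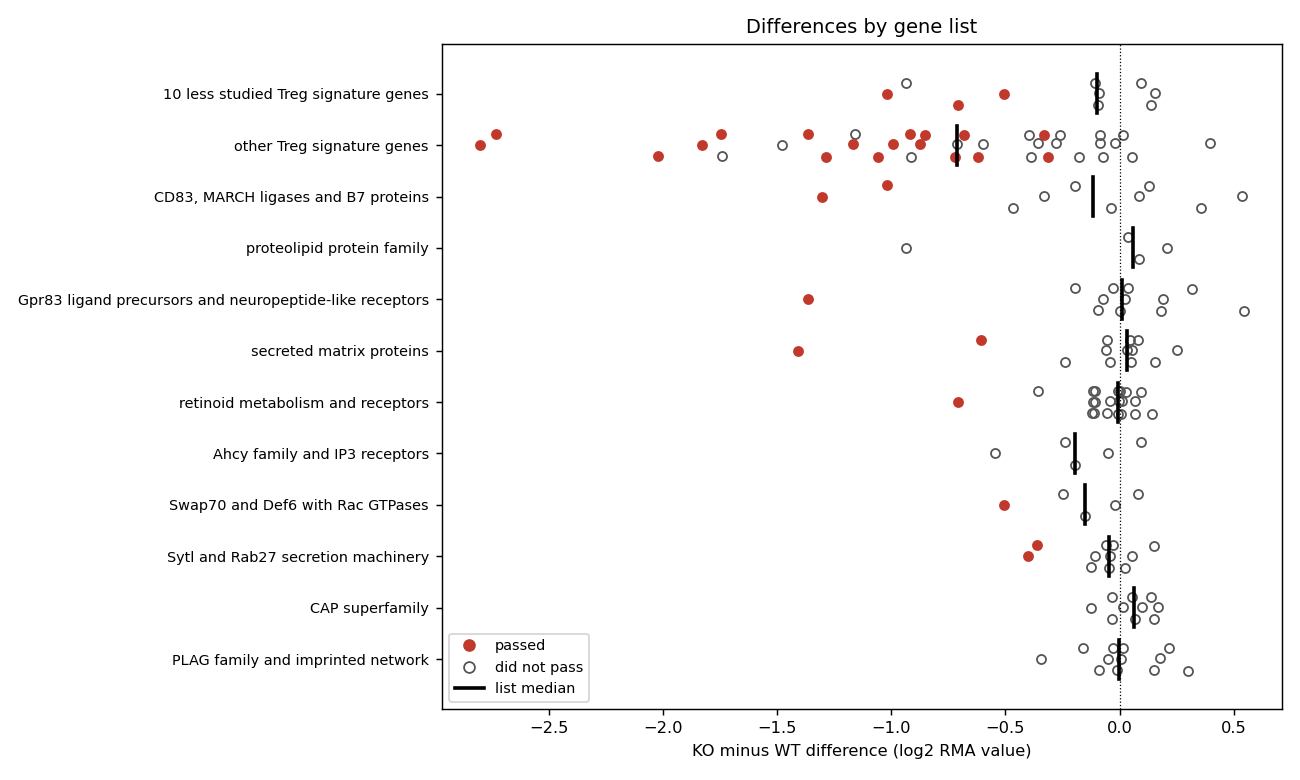
KO minus WT difference in log2 RMA value (horizontal axis) of every measured gene of each list (rows; each family list includes the gene of the 10 that it was built around), filled red where the gene passed the limma test and open where it did not, with the list median as a black bar. The 37 other Treg signature genes have a median of -0.71, and the medians of the family lists lie between -0.20 and 0.062.

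Genes whose values over the 9 arrays ran closest to each gene that fell were found by the mean absolute distance between values centred on each gene's mean. Nearest to Cd83 were the G protein subunit gene Gna15 (distance 0.075 log2 units), Cep290 (0.119) and the cathepsin gene Ctsb (0.129). Nearest to Dhrs3 were the Mediator subunit gene Med15 (0.103), the adaptor gene Sla2 (0.106) and Baiap3 (0.113). For Swap70 they were Sdf4 (0.0614), Lrrc49 (0.0653) and the aminopeptidase gene Erap1 (0.0708). All 9 were lower in KO means than in WT means, which the measure itself favours.

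Along the chromosomes 3 of the 10 genes had a gene that passed among the 5 nearest measured genes on either side, where 19.8% of all placed genes and 29.4% of those that passed had one. These neighbours were named by position after the fit. Tnfrsf1b and Tnfrsf8, TNF receptor family genes that lie near Dhrs3 on chromosome 4, had differences of -1.03 and -0.94 (limma adjusted p = 0.000444 and 0.00937). Izumo1r, which encodes folate receptor 4, lies near Gpr83 on chromosome 9 and also fell (difference -0.31), while Gpr83 itself did not pass. Stx11, a syntaxin of cytotoxic granule release, lies near Plagl1 on chromosome 10 and fell as well (difference -0.89). Cd83 on chromosome 13 and Swap70 on chromosome 7 had no such neighbour.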

How the data were processed

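The authors deposited log2 values, 1 per probe set and array; the submitters' processing notes name RMA and Affymetrix Expression Console 1.1. Per the labels' protocols, 1 to 20 ng of total RNA per sample was amplified and biotinylated with NuGEN kits. RMA combines background correction, quantile normalisation and a summary of probes by medians, which can give several arrays the same value (Sytl2 has 1 value in 3 arrays). Array medians lay between 3.99 and 4.08. The array's genome build is not named in these sources.

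Probe sets with 1 gene symbol in the platform annotation were named (23521 of 41345), and 23328 matched the RefSeq gene table by Entrez identifier. A gene with several probe sets was represented by the one of highest mean. KO and WT arrays were compared with limma 3.58.1 (lmFit and eBayes, R 4.3.3, two-sided, Benjamini-Hochberg over 22180 genes, threshold 0.05, no filter on dim genes). Simulated data (22180 genes) drew independent normal values from each gene's mean and an SD pooled over both groups. There the fit recovered 62.5% of genes lowered by 0.5 and 95% lowered by 1. It recovered 55% raised by 0.5, 92.5% raised by 1 and 100% raised by 2, and 10 of 172 calls were false. In the real data the spreads of the groups differed, so these rates may not carry over. Promoter windows came from RefSeq (GRCm38.p6). The number of arrays limits the precision.

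The genes named were the 10 genes, Stk4, Stk3, Foxp3, passing or otherwise nearest genes of the family lists, and the nearest profiles. All of these, and the lists, were chosen with earlier results of these data known. Alternatives were a replicate block, a filter on dim genes, other uses of probe sets, median centring, quantile normalisation, other eBayes and weight settings, a heat shock covariate and leaving out arrays. Tables and plots were made in Python 3.11.15 (pandas 2.3.3; matplotlib 3.10.9).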

Additional observations from a re-analysis of the deposited data

Results flagged for a closer look

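In 20 groups of values (10 genes in KO and in WT arrays) a test for 1 value far from the rest found 4, where chance gives about 1 in 20. Sytl2 was far below the other KO arrays in KO array 4 (5.48, with the next value at 6.14) and below the other WT arrays in WT array 4 (5.71, next 6.14). Glipr2 was low in WT array 4 (6.27, next 6.42), and Cd83 was high in WT array 2 (7.55, next 7.25).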

How the results depend on the processing

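The fall of Cd83 passed in each of 19 other settings (differences from -1.34 to -0.86), that of Swap70 in 17 and that of Dhrs3 in 16, and no setting reversed any of them. Leaving out 1 array at a time gave between 1 and 4 genes lower (1 without KO array 1, 4 without KO array 4) and between 271 and 594 genes passing in all, beside 515. The number of genes lower was 3 in each of the other settings with all arrays except the replicate block. With the replicate number as a replicate block 178 genes passed and 2 of the 10 fell, as Swap70 did not pass (difference -0.55, limma adjusted p = 0.0664). WT array 5 has no KO array of its number and adds nothing to the differences in that fit. The Swap70 difference was the same with WT array 5 left out (-0.55). Deviations from the group means showed little correlation between same-numbered arrays (0.042, -0.115, 0.011 and 0.041 over all genes). The labels name no pairing, and correlations over so few arrays cannot exclude one. Among genes that did not pass, signs turned for Ecm1 (-0.044 to 0.39), Glipr2 (-0.063 to 0.32), Gpr83 (-0.22 to 0.022) and Sytl2 (-0.20 to 0.067) when 1 array was left out. Without KO arrays 2 and 4 together, a setting added after the data were seen, Sytl2 was at 0.080, Glipr2 at -0.059 and Dhrs3 at -0.70 (limma adjusted p = 0.0751), and 2 of the 10 fell. Quantile normalisation raised the share of passing genes that were higher to 35.7%, beside 18.4%. The cause was not tested in any of these cases. Without scanner signals, no gene could be called present or absent.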
